A study of Rattus norvegicus with 29 samples.

Results

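The 5 dopamine receptor genes, Drd1 to Drd5, were examined in P rats, which were selectively bred to prefer alcohol, in RNA of the shell of the nucleus accumbens. They were found by gene symbol in the annotation of the rat array, which lists 8 probe sets for them among 31099 in all, and 14218 genes in all had a probe set of their own symbol. Drd1 had 2 probe sets, Drd4 had 3, and Drd2, Drd3 and Drd5 had 1 each. The arrays came from rats exposed to continuous ethanol (n = 10), rats with limited access to ethanol (n = 10) and rats given water only (n = 9). All were P rats, and the labels give no age, sex, dose or duration. Each value is a log2 RMA value, a normalized brightness of 1 probe set on 1 array, so levels of different probe sets cannot be set against each other.

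Dopamine receptors are G protein-coupled receptors in 2 families. The D1-like receptors, encoded by Drd1 and Drd5, couple to stimulatory G proteins and raise cyclic AMP, and the D2-like receptors, encoded by Drd2, Drd3 and Drd4, couple to inhibitory G proteins and lower it. In the accumbens, Drd1 marks the medium spiny neurons that also make dynorphin and substance P, and Drd2 marks those that make enkephalin. Drd2 is also found on dopamine terminals and on cholinergic interneurons.

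The regions before the starts of Drd1 and Drd2 are shown because these 2 transcripts varied together from array to array, as described below. Each is the 250 bases upstream of the start used in the RefSeq promoter table (build GRCr8), 5′ to 3′ on the plus strand, at chr17:10546354-10546603 for Drd1 and chr8:58605153-58605402 for Drd2. The Drd1 window lies within the gene as RefSeq annotates it, so what it holds or lacks may not describe a Drd1 promoter. Capitals mark GC boxes (GGGCGG, read on both strands).
Drd1: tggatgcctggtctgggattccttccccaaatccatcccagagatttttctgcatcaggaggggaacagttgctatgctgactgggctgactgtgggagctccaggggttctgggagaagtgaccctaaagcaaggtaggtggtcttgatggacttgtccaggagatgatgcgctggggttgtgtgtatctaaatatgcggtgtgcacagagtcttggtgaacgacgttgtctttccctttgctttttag
Drd2: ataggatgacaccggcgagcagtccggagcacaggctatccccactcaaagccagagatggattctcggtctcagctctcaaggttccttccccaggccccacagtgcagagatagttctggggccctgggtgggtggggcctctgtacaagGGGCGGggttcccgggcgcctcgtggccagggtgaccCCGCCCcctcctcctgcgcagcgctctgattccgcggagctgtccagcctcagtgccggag
The Drd2 window held 2 GC boxes, and the Drd1 window held 0. A GC box was present in 30.5% of the 33469 upstream windows of the same length in the table. The windows differed in base composition, with 66.0% G or C and 14 CpG dinucleotides for Drd2 and 51.2% and 4 for Drd1, against a median of 51.2% and 5 over all windows. The letters TATAAA (found in 12.9% of all windows), the AP-1 letters TGANTCA (6.34%), the cyclic AMP response element TGACGTCA (1.59%) and the Egr letters GCGNGGGCG (4.29%), each read on both strands, were not in either window.

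Array medians lay between 8.17 and 8.21, and correlations between arrays over all probe sets between 0.986 and 0.998. Over the tested probe sets water replicate 9 was least like its own group. Its median correlation with that group was 0.979, the next lowest array being limited access replicate 6 at 0.987. On the second principal component, which held 16.5% of the variance, 5 arrays lay apart at the low end (limited access replicates 6 and 7, water replicates 2, 5 and 6, with scores of -22.2 to -15.6, the next array being at -3.30). At the other end continuous replicate 4 stood at 20.2 and the next array at 10.9, and it was kept with the other 24 arrays. Their mean over the dim probe sets that were not tested was 5.80 to 5.85, against 5.70 to 5.82 for those 24. The markers of medium spiny neurons were present at high log2 values, such as 13.52 ± 0.12 (SD) for Penk with continuous ethanol and 13.56 ± 0.11 with water. The design text names 10 samples a group, and 1 water sample of it was not analysed here. The labels do not say whether different samples are different rats, so p-values here gauge sample-to-sample spread, part of which can be technical, and precision is set by how many arrays each group has.

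The first comparisons asked whether the receptor transcripts differed between the drinking schedules and water. None of the tested receptor probe sets passed the threshold in any comparison. A filter left out the 30 percent of probe sets with the lowest mean over all arrays, those at or below 6.86, and 21729 were tested. Of the 8 receptor probe sets 4 passed this filter, both of Drd1, that of Drd2 and 1 of Drd4. Those of Drd3 and Drd5 and the other 2 of Drd4 were too dim and were fitted only with no filter. Limma (linear models with a moderated test) called 0 of the 4 with continuous ethanol against water (adjusted p under 0.05), where 0.152% of all tested probe sets were called. It called 0 of 4 with limited access against water (0% of all) and 0 of 4 with continuous against limited access (0.0046% of all). The moderated F test over the 3 groups called 0 of 4, beside 0.0828% of all. At an unadjusted p under 0.05 the counts were 1 of 4, 0 of 4 and 0 of 4, against 16.1%, 4.44% and 9.31% of all tested probe sets.

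Drd1, the stimulatory receptor of the dynorphin-expressing medium spiny neurons, had the lowest, median and highest log2 values of 11.96, 12.09 and 12.29 with continuous ethanol on its brighter probe set (1368478_at). With limited access they were 12.05, 12.11 and 12.37, and with water 11.79, 12.15 and 12.43. The groups overlapped widely, and the water arrays spanned both the lowest and the highest value. The mean was 12.10 ± 0.09 (SD, n = 10) with continuous ethanol, 12.16 ± 0.12 (SD, n = 10) with limited access and 12.15 ± 0.17 (SD, n = 9) with water. The difference of continuous from water was -0.04 ± 0.06 (SE, limma adjusted p = 0.728), with a 95% interval on the linear scale from 0.893-fold to 1.05-fold. Limited access differed from water by 0.01 ± 0.06 (limma adjusted p = 0.994) and continuous from limited access by -0.06 ± 0.06 (limma adjusted p = 0.768).

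On the second Drd1 probe set (1368479_at) the lowest, median and highest values were 10.08, 10.45 and 10.70 with continuous ethanol, 10.39, 10.56 and 10.73 with limited access, and 10.05, 10.46 and 10.88 with water. The groups overlapped, and none of the means differed beyond the spread. Its means were 10.45 ± 0.16 (SD, n = 10) with continuous ethanol, 10.56 ± 0.12 (SD, n = 10) with limited access and 10.45 ± 0.22 (SD, n = 9) with water. Continuous differed from water by -0.01 ± 0.08 (SE, limma adjusted p = 0.975), limited access from water by 0.10 ± 0.08 (adjusted p = 0.972) and continuous from limited access by -0.11 ± 0.07 (adjusted p = 0.630). In both probe sets water replicate 2 was the lowest of all 29 arrays and water replicate 5 the highest.

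Drd2, the inhibitory receptor of the enkephalin-expressing medium spiny neurons, was read by 1 probe set (1368708_a_at), whose suffix marks probes shared by alternative transcripts of a gene, so that the long and short forms of the receptor cannot be told apart. Its lowest, median and highest log2 values were 9.64, 9.95 and 10.08 with continuous ethanol, 9.72, 9.96 and 10.13 with limited access, and 9.70, 10.07 and 10.26 with water. The groups overlapped, and 9 of 10 continuous arrays lay below the water mean. Means were 9.89 ± 0.14 (SD, n = 10) with continuous ethanol, 9.95 ± 0.13 (SD, n = 10) with limited access and 10.05 ± 0.16 (SD, n = 9) with water. The difference of continuous from water, -0.16 ± 0.06 (SE, 0.816-fold to 0.977-fold, limma unadjusted p = 0.0156), did not pass after adjustment over all probe sets (adjusted p = 0.218). Limited access differed from water by -0.10 ± 0.06 (limma adjusted p = 0.972) and continuous from limited access by -0.06 ± 0.06 (limma adjusted p = 0.785).

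Beside the Drd2 difference, the mean score of 15 markers shared by all medium spiny neurons was -0.02 ± 0.10 (SD) in continuous arrays and 0.02 ± 0.11 in water arrays (exact permutation adjusted p = 0.963 over 42 tests of array measures). With that score as a covariate the Drd2 difference was -0.12 (limma adjusted p = 0.179), and with the leptomeningeal score it was -0.22 (adjusted p = 0.136). The mean of the dim probe sets was 5.75 ± 0.02 in continuous arrays and 5.78 ± 0.03 in water arrays (exact permutation p = 0.0118, adjusted p = 0.215). With that mean as a covariate the Drd2 difference was -0.11 (limma unadjusted p = 0.101, adjusted p = 0.867). Without the 5 arrays that lay apart it was -0.16 (limma unadjusted p = 0.0101, adjusted p = 0.400). With them as a block it was -0.14 (unadjusted p = 0.0547, adjusted p = 0.661). The adjusted p also depends on the p-values of all other tested probe sets, and the unadjusted p over all arrays was 0.0156. In tissue RNA, fewer cells of a type and less RNA per cell cannot be told apart.

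**Figure D1:**
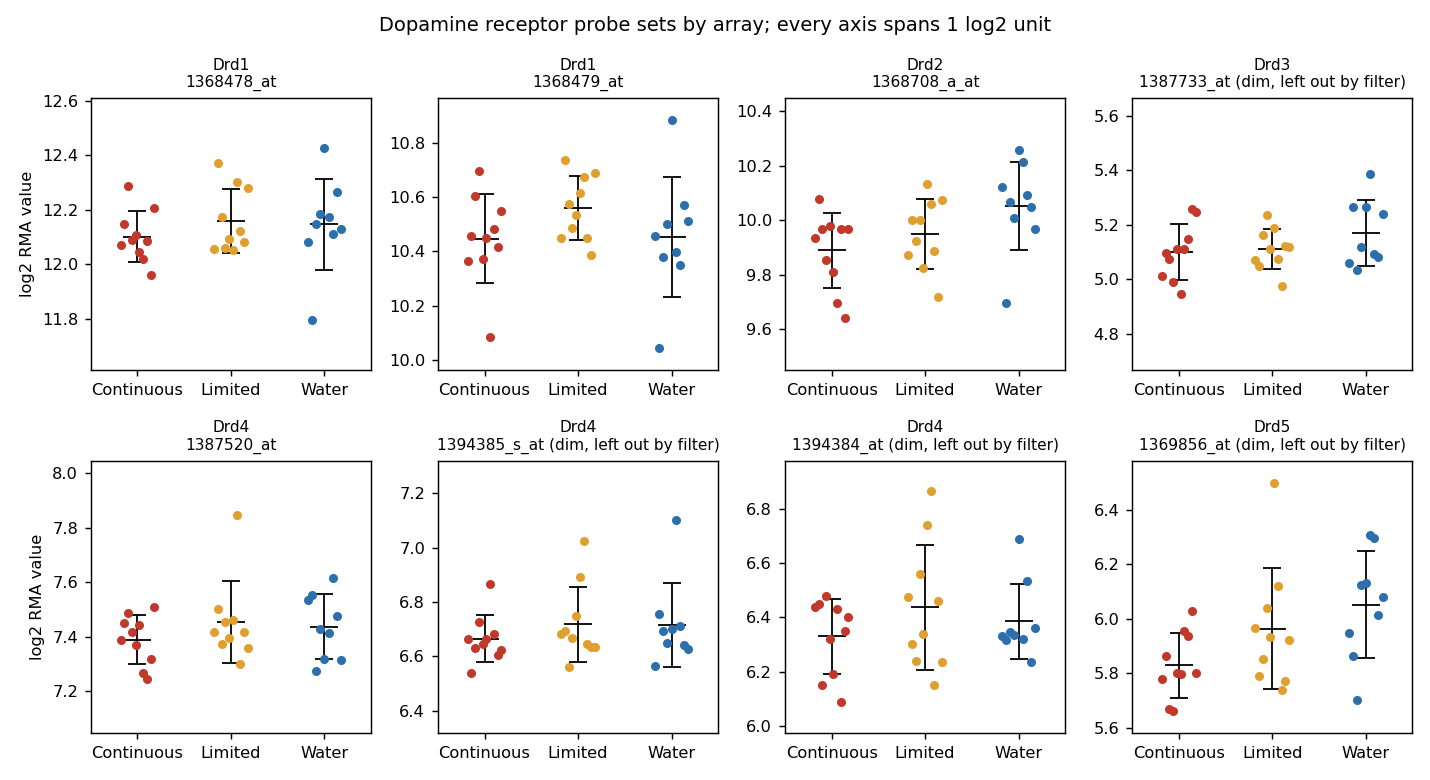
Log2 RMA values of the 8 dopamine receptor probe sets on every array, with continuous ethanol (red, n = 10), limited access (yellow, n = 10) and water (blue, n = 9); bars show the mean and SD. The groups overlap in every panel, and the gap between the continuous and water means is widest for Drd2 (-0.16) and Drd5 (-0.22).

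Drd4, a D2-like receptor found mainly in cortex and retina, was measured above the filter by 1 probe set (1387520_at). Its lowest, median and highest values were 7.25, 7.40 and 7.51 with continuous ethanol, 7.30, 7.42 and 7.85 with limited access, and 7.27, 7.43 and 7.62 with water. The 3 groups overlapped, and the highest array was limited access replicate 7. Means were 7.39 ± 0.09 (SD, n = 10) with continuous ethanol, 7.45 ± 0.15 (SD, n = 10) with limited access and 7.44 ± 0.12 (SD, n = 9) with water. Continuous ethanol differed from water by -0.05 ± 0.06 (SE, limma adjusted p = 0.690), limited access from water by 0.02 ± 0.06 (adjusted p = 0.991) and continuous from limited access by -0.06 ± 0.05 (adjusted p = 0.716).

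The dim probe sets of Drd3, Drd4 and Drd5 had means over all arrays below the filter, and for these the fit with no filter over 31042 probe sets gave the tests. In that fit 0 of the 8 receptor probe sets passed with continuous ethanol against water (0.106% of all were called), with limited access against water (0%) or with continuous against limited access (0.00322%). At an unadjusted p under 0.05 there were 2 of 8, Drd2 and Drd5, with continuous ethanol against water, beside 14.9% of all probe sets, and 0 of 8 in each other comparison (4.43% and 9.41% of all).

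Drd5, the second D1-like receptor, known from hippocampus, cortex and cholinergic interneurons, had lowest, median and highest values of 5.66, 5.80 and 6.03 with continuous ethanol. They were 5.74, 5.93 and 6.50 with limited access and 5.70, 6.08 and 6.31 with water. All 10 continuous arrays lay below the water mean, although the groups overlapped. Means were 5.83 ± 0.12 (SD, n = 10) with continuous ethanol, 5.96 ± 0.22 (SD, n = 10) with limited access and 6.05 ± 0.20 (SD, n = 9) with water. The difference of continuous from water was -0.22 ± 0.08 (SE, 0.764-fold to 0.960-fold, limma with no filter, unadjusted p = 0.00965, adjusted p = 0.227). Limited access differed from water by -0.09 ± 0.08 (limma adjusted p = 0.989), and continuous from limited access by -0.14 ± 0.08 (adjusted p = 0.578).

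Across arrays the Drd5 value moved with the mean of the dim probe sets (Pearson r = 0.70, Spearman rho = 0.60, permutation adjusted p = 0.00196 and 0.0175 over 104 relations, 29 arrays, group means removed). That r was 0.50 without the 2 arrays farthest from the median and 0.53 without the 5 arrays that lay apart. Within the groups it was 0.24 with continuous ethanol, 0.86 with limited access and 0.64 with water. The other dim receptor probe sets had a positive r with this mean, and of them 1394384_at alone passed by both measures. For Drd4 1394384_at r was 0.69 and rho 0.58 (permutation adjusted p = 0.00196 and 0.0185). For Drd4 1394385_s_at they were 0.52 and 0.36 (adjusted p = 0.037 and 0.282), and for Drd3 0.48 and 0.50 (adjusted p = 0.037 and 0.0673). Without the 5 arrays that lay apart r was 0.52 for 1394384_at, 0.06 for 1394385_s_at and 0.50 for Drd3. With the mean of the dim probe sets as a covariate the Drd5 difference of continuous from water was -0.09 (limma unadjusted p = 0.199, adjusted p = 0.948). Without the 5 arrays that lay apart it was -0.20 (limma unadjusted p = 0.00758, adjusted p = 0.419). With those arrays as a block it was -0.15 (unadjusted p = 0.0719, adjusted p = 0.739).

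Drd3, a D2-like receptor enriched in the ventral striatum and the islands of Calleja, had lowest, median and highest values of 4.94, 5.10 and 5.26 with continuous ethanol, 4.97, 5.11 and 5.23 with limited access, and 5.03, 5.12 and 5.39 with water. The groups overlapped, and the highest array was water replicate 6. Its means were 5.10 ± 0.10 (SD, n = 10) with continuous ethanol, 5.11 ± 0.07 (SD, n = 10) with limited access and 5.17 ± 0.12 (SD, n = 9) with water. Continuous differed from water by -0.07 ± 0.05 (SE, limma with no filter, adjusted p = 0.461), limited access from water by -0.06 ± 0.05 (adjusted p = 0.989) and continuous from limited access by -0.01 ± 0.05 (adjusted p = 0.957).

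The dim Drd4 probe set 1394385_s_at had lowest, median and highest values of 6.54, 6.66 and 6.87 with continuous ethanol, 6.56, 6.67 and 7.02 with limited access, and 6.57, 6.69 and 7.10 with water. The other, 1394384_at, had 6.09, 6.38 and 6.48 with continuous ethanol, 6.15, 6.40 and 6.86 with limited access, and 6.24, 6.34 and 6.69 with water. The groups overlapped in both. Their differences of continuous ethanol from water were -0.05 and -0.06 (limma with no filter, adjusted p = 0.690 and 0.753). The suffix of 1394385_s_at marks probes which can match transcripts of more than 1 gene, so its assignment to Drd4 is uncertain.

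In all, 8 of 8 receptor probe sets had a lower mean with continuous ethanol than with water and 8 of 8 a lower mean with continuous than with limited access, while 3 of 8 were lower with limited access than with water. The medians of the 8 differences were -0.05, -0.06 and 0.01, beside 0.00, 0.01 and 0.00 over all tested probe sets in the same comparisons. Of the 8, 4 were not tested for being dim, and the mean of all such dim probe sets was itself lower with continuous ethanol, by -0.04 against water and -0.03 against limited access (exact permutation p = 0.0118 and 0.0953, neither under 0.05 after adjustment over 42 tests). These probe sets share arrays, and comparisons with water share the water arrays. The 95% intervals of all 8 lay between -0.39 and 0.15 for continuous ethanol against water. The 3′ minus 5′ signal of the beta-actin and GAPDH control probe sets was 0.57 ± 0.06 (SD) with continuous ethanol. It was 0.50 ± 0.05 with limited access (exact permutation p = 0.0205, adjusted p = 0.215) and 0.53 ± 0.03 with water (p = 0.172, adjusted p = 0.595). With it as a covariate, continuous differed from water by -0.17 for Drd2 (limma adjusted p = 0.314) and -0.21 for Drd5 (adjusted p = 0.364).

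**Figure D2:**
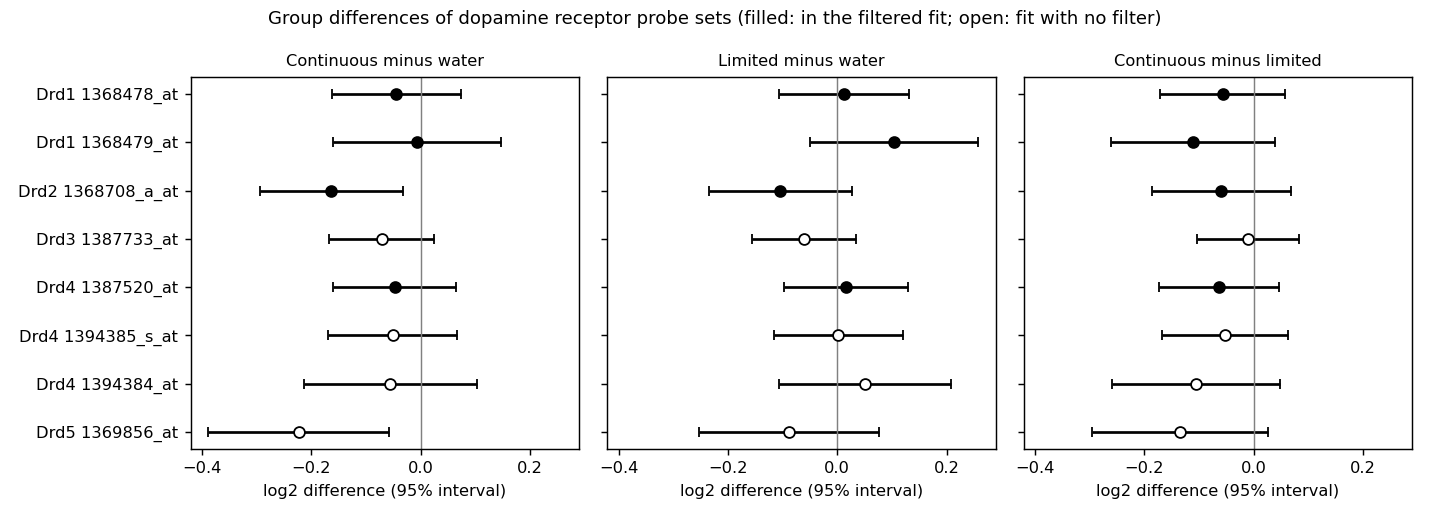
Log2 differences between group means, with 95% intervals, for each receptor probe set, with continuous minus water (left), limited minus water (middle) and continuous minus limited (right). Intervals exclude 0 without adjustment for Drd2 (-0.29 to -0.03) and Drd5 (-0.39 to -0.06) with continuous ethanol against water.

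A further comparison asked whether Drd1 and Drd2 changed by different amounts. Its level sets 2 different probe sets together and has no meaning of its own, so only its differences between groups are read. The log2 difference of Drd1 minus Drd2, each on its brightest probe set, was 2.21 ± 0.09 (SD, n = 10) with continuous ethanol, 2.21 ± 0.14 (SD, n = 10) with limited access and 2.09 ± 0.10 (SD, n = 9) with water. The lowest, median and highest were 2.07, 2.24 and 2.32 with continuous ethanol, 1.92, 2.24 and 2.37 with limited access, and 1.96, 2.10 and 2.21 with water. Of the continuous arrays 9 of 10, and of the limited access arrays 8 of 10, lay above the water mean, and the groups overlapped. The change of Drd1 exceeded that of Drd2 by 0.12 with continuous ethanol against water (exact two-sided permutation p = 0.0154, adjusted p = 0.0463 over 3 comparisons) and by 0.12 with limited access against water (exact p = 0.0486, adjusted p = 0.0729). Between continuous and limited access the changes differed by 0.00 (exact p = 0.964, adjusted p = 0.964).

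The adjusted p of the difference with continuous ethanol was at or above 0.05 when any 1 of 11 arrays was left out. These were continuous replicates 3, 4, 6, 7, 9 and 10 (group n = 10) and water replicates 1, 2, 3, 6 and 7 (group n = 9). Only the arrays of these 2 groups enter this test. Leaving out a limited access array could therefore not raise its adjusted p to 0.05. With each of the 29 arrays left out in turn, the adjusted p ranged from 0.0204 to 0.0965 (exact permutation), while the difference lay between 0.10 and 0.13. Without the 5 arrays that lay apart it was 0.11 (exact permutation adjusted p = 0.0665). It was not tested with a covariate or block. In the limma fits Drd1 (1368478_at) and Drd2 differed from water by -0.04 and -0.11 with the dim mean as a covariate. They differed by -0.05 and -0.14 with the 5 arrays as a block, and by -0.09 and -0.22 with the leptomeningeal score. With the medium spiny neuron score the values were -0.00077 and -0.12. The Drd1 minus Drd2 test was set with the changes of both genes already known, so it is not independent of them.

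The members were next compared with each other across arrays, after the mean of its group was removed from each value. Drd1 and Drd2 varied together. Between the brightest Drd1 probe set and Drd2, Pearson r was 0.67 (permutation p = 0.00033, adjusted p = 0.00462 over 28 pairs) and Spearman rho was 0.60 (permutation p = 0.00101, adjusted p = 0.0141), over 29 arrays. Within the groups r was 0.74 with continuous ethanol, 0.39 with limited access and 0.83 with water. It was 0.48 without the 2 arrays farthest from the median, 0.54 without water replicate 2, the array lowest in Drd1, and 0.58 without the 5 arrays that lay apart.

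The 2 Drd1 probe sets had r = 0.80 and rho = 0.72 (permutation adjusted p = 0.00028 each), the smallest value these permutations can give. The dimmer Drd1 probe set had r = 0.63 with Drd2 (permutation adjusted p = 0.0119) and rho = 0.50 (adjusted p = 0.0610). None of the other 25 pairs passed by either measure, which include all pairs with Drd3, Drd4 or Drd5. The 3 Drd4 probe sets had r from 0.27 to 0.44 with each other (permutation adjusted p from 0.124 to 0.442).

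**Figure D3:**
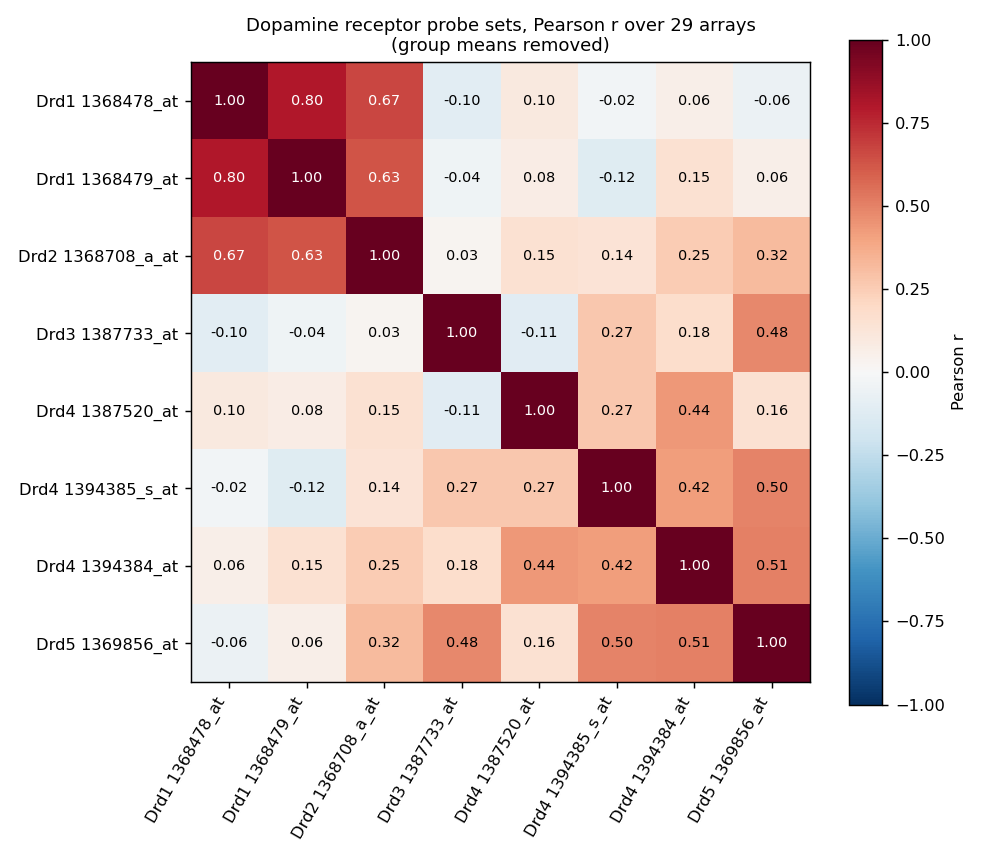
Pearson r between the 8 receptor probe sets over 29 arrays with group means removed, on a colour scale from -1 to 1. The block of Drd1 and Drd2 holds r from 0.63 to 0.80, and Drd1 with Drd3, Drd4 and Drd5 lies between -0.12 and 0.15.

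Drd1 and Drd2 lay close to other striatal transcripts. Among 11327 genes ranked by r with the brightest Drd1 probe set, the highest were Rarb, a retinoic acid receptor (r = 0.84), Pdyn, the dynorphin precursor (0.82), Adora2a, an adenosine receptor (0.81), Prkch, a protein kinase C isoform (0.80), and Cacna2d3, an auxiliary calcium channel subunit (0.79). Drd2 was at rank 35 of these genes. The lowest were Smoc1 (-0.74), a matrix protein, and Abhd14b (-0.73). The median r over all named probe sets was 0.01.

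For Drd2 the highest were Ptpn5, the striatal-enriched phosphatase STEP (r = 0.86), Penk, the enkephalin precursor (0.84), Syndig1, a synapse protein that binds AMPA receptors (0.84), Adora2a (0.83) and Gnal, the stimulatory G protein alpha subunit of striatum (0.82). Drd1 was at rank 48 of 11327, and the lowest were Oat, ornithine aminotransferase (-0.80), and Cast, calpastatin (-0.78). For Drd4 (1387520_at) the highest were Asb14 (0.75), Gpr153 (0.70), Fam25a (0.70), Glis1 (0.69) and Zfp691 (0.69), and the lowest Mtrf1l (-0.74) and Ptdss2 (-0.71). Drd1 was at rank 3736 and Drd2 at rank 2871 for Drd4. These r values were the extremes of a long ranking and are given as a description over 29 arrays.

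Among markers of the Drd1-type neurons, the r with the brightest Drd1 probe set was 0.82 for Pdyn, 0.79 for Tac1, the substance P precursor, and 0.43 for Chrm4, the muscarinic M4 receptor, and with Drd2 it was 0.80, 0.59 and 0.42. Of the 8 markers of that list, 6 had r above 0 with Drd1 and 5 with Drd2. Eya1, a transcription cofactor, had r = -0.38 with Drd1 and -0.56 with Drd2, Sfxn1 -0.02 and -0.21, and Ebf1, a transcription factor, 0.02 and -0.14. Among markers of the Drd2-type neurons, Penk had r = 0.68 with Drd1 and 0.84 with Drd2, Adora2a 0.81 and 0.83, Gpr6, an orphan receptor, 0.77 and 0.80, and Plxdc1 0.08 and 0.15. The list medians were 0.44 with Drd1 and 0.37 with Drd2 over 8 markers of the Drd1 type, and 0.72 and 0.81 over 4 markers of the Drd2 type. On the dimmer Drd1 probe set (1368479_at) r was 0.80 for Pdyn, 0.66 for Tac1, 0.57 for Slc35d3, 0.36 for Chrm4 and 0.10 for Isl1. It was -0.20 for Sfxn1, -0.28 for Ebf1 and -0.42 for Eya1. The Drd1-type score had r = 0.53 with that probe set (permutation adjusted p = 0.037) and rho = 0.44 (adjusted p = 0.136). That r was 0.23 without the 2 arrays farthest from the median.

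The score of the 15 common medium spiny neuron markers had r = 0.78 with Drd1 (rho = 0.78, permutation adjusted p = 0.000347 for each) and 0.75 with Drd2 (rho = 0.71, adjusted p = 0.000416 and 0.00125), over 104 relations. The r of Drd1 with Drd2 was 0.20 once that score was regressed out of both. Leptomeningeal markers, which come from the membranes around the brain, ran the other way, with 15 of 15 at a negative r with Drd1 (median -0.47) and 15 of 15 with Drd2 (median -0.51). Their score had r = -0.50 with Drd1 and -0.52 with Drd2 (permutation adjusted p = 0.0357 each), while rho was -0.38 and -0.33 (adjusted p = 0.245 and 0.344). Medians over cortical pyramidal, oligodendrocyte, astrocyte, microglial and endothelial markers lay between -0.23 and 0.14.

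**Figure D4:**
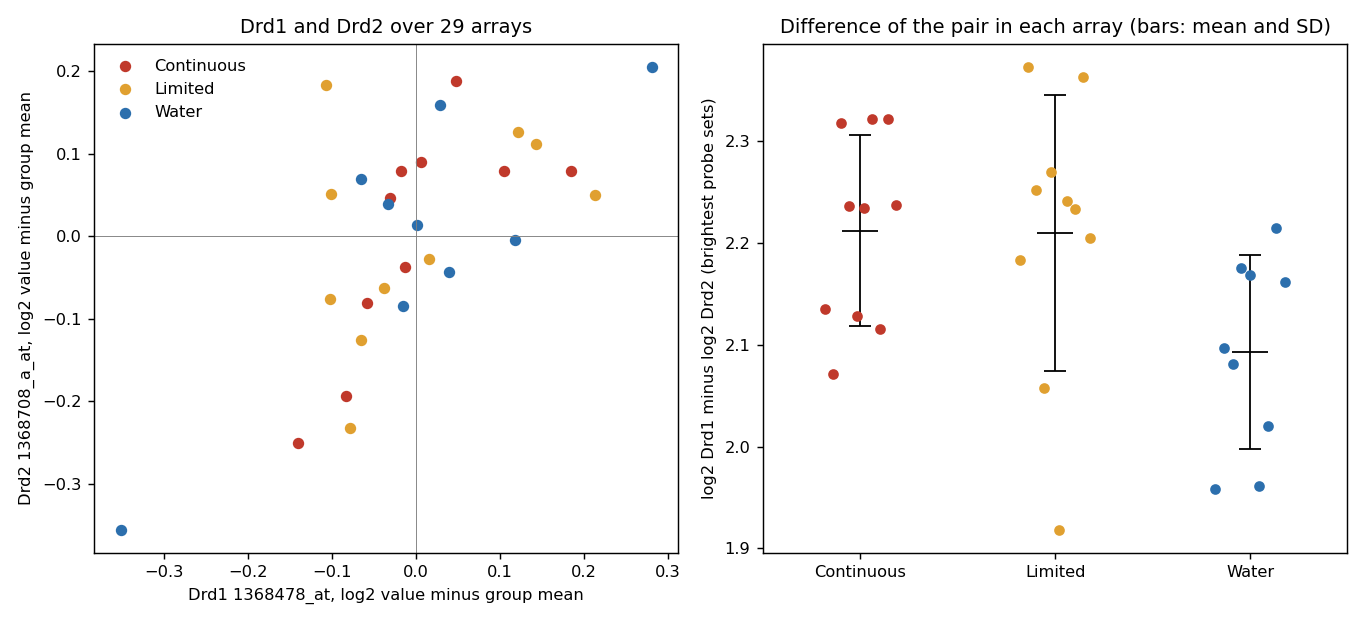
Left, Drd1 (1368478_at) against Drd2 on the log2 scale with group means removed, 1 point per array in red (continuous), yellow (limited) and blue (water). Right, log2 Drd1 minus log2 Drd2 by group with mean and SD, which averages 2.21, 2.21 and 2.09 from left to right.

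**Figure D5:**
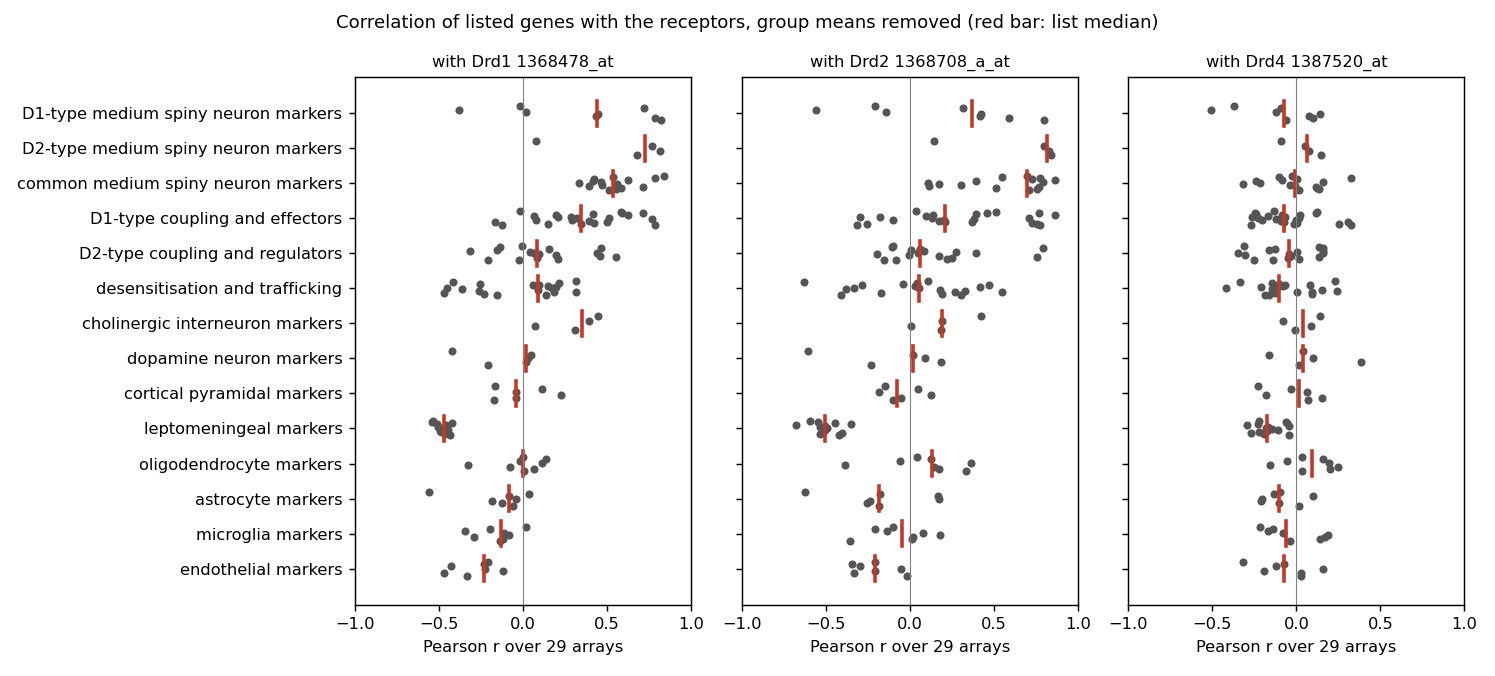
Pearson r over 29 arrays of each listed gene with Drd1, Drd2 and Drd4, grouped by list, with a red bar at the list median. Medium spiny neuron lists lie to the right for Drd1 and Drd2 (medians 0.37 to 0.81) and leptomeningeal markers to the left (medians -0.47 and -0.51), while Drd4 medians lie between -0.17 and 0.10.

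The genes that carry the receptor signals were read on their brightest probe set. Of 23 genes of the stimulatory pathway, from the G protein subunits to protein kinase A and DARPP-32, limma called 0 in each of the 3 comparisons. With continuous ethanol against water, 12 of 23 had a lower mean, and the list median was -0.01 beside 0.00 over all tested probe sets. Those of smallest p were Ptpn5, at 11.86 ± 0.07 (SD) with continuous ethanol and 11.97 ± 0.10 with water (difference -0.11 ± 0.04 SE, limma adjusted p = 0.191), Gng7, a striatal G protein gamma subunit (-0.16 ± 0.06, adjusted p = 0.198), and Ppp1cb, a catalytic subunit of protein phosphatase 1 (0.13 ± 0.05, adjusted p = 0.204). Adcy5, the main striatal adenylyl cyclase, differed by -0.15 ± 0.06 (adjusted p = 0.259), Ppp1r1b, which encodes DARPP-32, by -0.09 ± 0.05 (adjusted p = 0.374) and Gnal by 0.01 ± 0.04 (adjusted p = 0.937).

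Of 17 tested genes of inhibitory coupling and its regulators, 0 were called in each comparison, and the median with continuous ethanol against water was 0.04. Rasd2, a striatal small G protein, had a difference of -0.23 ± 0.06 (limma adjusted p = 0.136), Rgs9, which speeds the shutting off of the inhibitory G protein, of -0.20 ± 0.06 (adjusted p = 0.150) and Gnai1, an inhibitory alpha subunit, of 0.16 ± 0.06 (adjusted p = 0.217). Across arrays Rasd2 and Rgs9 had r = 0.79 and 0.75 with Drd2, and 0.46 and 0.55 with Drd1, while Gnai1 had -0.15 with Drd2 and -0.02 with Drd1. The list medians were 0.06 with Drd2 and 0.08 with Drd1, with 11 of 17 genes above 0 for each. Of 19 tested genes of receptor desensitisation, trafficking and binding, 0 were called in each comparison (the median with continuous ethanol against water was 0.00). Arrb2, the beta-arrestin that binds Drd2, differed by 0.10 ± 0.04 (adjusted p = 0.209), Epb41l2 by -0.09 ± 0.03 (adjusted p = 0.215) and Grk5, a receptor kinase, by -0.15 ± 0.07 (adjusted p = 0.289).

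Markers of the neurons that carry the receptors were likewise not called. With continuous ethanol against water, Pdyn differed by -0.05 ± 0.09 (SE, limma adjusted p = 0.838), Tac1 by -0.01 ± 0.06 (adjusted p = 0.930), Chrm4 by -0.11 ± 0.06 (adjusted p = 0.336), Penk by -0.04 ± 0.05 (adjusted p = 0.720) and Adora2a by -0.09 ± 0.08 (adjusted p = 0.560). Of 15 common, 8 Drd1-type and 4 Drd2-type markers, 0 were called in any comparison. Of 5 tested dopamine neuron markers 0 were called, and Th, which encodes tyrosine hydroxylase, the enzyme that starts dopamine synthesis, had r = -0.21 with Drd1 and -0.23 with Drd2. Of these 5, 3 had r above 0 with Drd1 and 3 with Drd2, and the median r was 0.02 with each. Of 4 cholinergic interneuron markers 0 were called, and their median r was 0.35 with Drd1 (1368478_at) and 0.19 with Drd2. Isl1, 1 of these 4, is also on the Drd1-type list. On the dimmer Drd1 probe set (1368479_at) r was -0.07 for Chat, -0.33 for Slc18a3, 0.09 for Slc5a7 and 0.10 for Isl1. For Th it was 0.10 on that probe set.

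By the same rule the genes of smallest p were read in each marker list with continuous ethanol against water, and none passed (limma). For the Drd1 type they were Chrm4, Slc35d3 at 0.13 ± 0.08 (SE, adjusted p = 0.430) and Ebf1 at -0.07 ± 0.07 (adjusted p = 0.659). For the Drd2 type they were Adora2a, Penk and Plxdc1 at -0.04 ± 0.04 (adjusted p = 0.628), and for the common markers Rasd2, Rgs9 and Ptpn5, given above. Of the dopamine neuron markers, Ddc, which makes dopamine from its precursor, differed by -0.12 ± 0.07 (adjusted p = 0.417), Aldh1a1 by -0.21 ± 0.13 (adjusted p = 0.418) and Nr4a2 by 0.21 ± 0.13 (adjusted p = 0.429). Of the cholinergic markers, Chat, which makes acetylcholine, differed by 0.11 ± 0.15 (adjusted p = 0.755), Slc5a7 by 0.12 ± 0.17 (adjusted p = 0.765) and Slc18a3 by -0.06 ± 0.10 (adjusted p = 0.795).

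Markers of other cells in the dissected tissue were not called either. The list medians with continuous ethanol against water were -0.32 over 15 leptomeningeal markers, all below 0, with Igf2 at -0.48 ± 0.25 (SE, limma adjusted p = 0.335), -0.09 over 7 endothelial markers, with Esam at -0.24 ± 0.06 (adjusted p = 0.102), and 0.11 over 6 cortical pyramidal markers, with Emx1 at 0.15 ± 0.06 (adjusted p = 0.231). They were -0.06 over 7 astrocyte markers, with Gjb6 at -0.26 ± 0.11 (adjusted p = 0.246), -0.02 over 8 microglial markers, with Aif1 at 0.17 ± 0.08 (adjusted p = 0.318), and -0.01 over 8 oligodendrocyte markers, with Opalin at 0.13 ± 0.07 (adjusted p = 0.345). With the leptomeningeal score as a covariate, the difference of continuous ethanol from water was -0.09 for Drd1 (1368478_at, limma adjusted p = 0.452) and -0.21 for Drd5 (adjusted p = 0.329), beside -0.04 and -0.22 without it. The part of the endothelial, cortical and glial markers in the receptor differences was not tested.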

How the data were processed

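The deposited values are log2 expression values that the authors made with RMA (background correction, quantile normalization and probe set summary), per the submitters' processing notes, from biotinylated cRNA of total RNA, per the labels' protocols. That they are on base 2 is taken from their range (4.04 to 16.0). The RMA version and array batches are not given in the sources used here. Of 31099 probe sets, 57 control probe sets were left out, and 20832 had 1 gene symbol, 436 several and 9831 none.

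Differences were fitted over all 29 arrays with lmFit and eBayes of limma 3.58.1 in R 4.3.3, group being the only factor, two-sided, with Benjamini-Hochberg adjustment over the probe sets tested and a threshold of 0.05. All adjusted p-values of single genes are from limma. A gene of a list stood by its brightest tested probe set, and a marker score is the mean log2 deviation of a list from the mean of all arrays. In the rankings by r with a receptor, a gene stood by its probe set of highest r, or of lowest r among the lowest genes. Scores and the Drd1 minus Drd2 difference were compared by exact permutation tests, and correlations by 100000 permutations within groups (Python 3.11.15, SciPy 1.17.1). The fit was tested on simulated data.

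Named by rule are all receptor probe sets and up to 3 genes of smallest p in each list. So are the 5 genes of highest and 2 of lowest r with each receptor above the filter. Also named, whatever their p, are Ppp1r1b, Adcy5, Gnal, Rgs9, Penk, Pdyn, Tac1, Adora2a and Chrm4. Gpr6, Th, Eya1, Sfxn1 and Isl1 fell outside this rule and were named after their values were seen. Members, lists and tests were chosen with earlier results of these data known. The upstream windows are from the RefSeq promoter table, build GRCr8, where 5 of 5 receptor genes matched by symbol. That of Drd1 lies within the gene. Alternatives were other filters, normalizations, priors, weights, a replicate block, covariates and leaving out arrays.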

Additional observations from a re-analysis of the deposited data

Results flagged for a closer look

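In 24 groups of values, each receptor probe set in each group, 3 held an array whose gap to the next array was too large a share of the range by Dixon's criterion; chance flags about 1 in 20 groups. Drd4 (1387520_at) was 7.85 in limited access replicate 7, and the next highest limited access array was at 7.50. Drd4 (1394385_s_at) was 7.10 in water replicate 6, with the next highest water array at 6.76. Drd5 was 6.50 in limited access replicate 6, with the next highest at 6.12. All 3 arrays were among the 5 with the lowest scores on principal component 2 (-22.2 to -15.6), the others being water replicates 2 and 5. Continuous replicate 4 stood apart at the other end (20.2, the next array at 10.9) and held none of the 3 values. The mean of the dim probe sets was between 5.80 and 5.85 in these 5 arrays and between 5.70 and 5.82 in the other 24. Without limited access replicate 6 the Drd5 difference of continuous ethanol from water had a limma adjusted p of 0.128, the smallest over its alternatives. Without the 5 arrays the difference was -0.20 (limma unadjusted p = 0.00758, adjusted p = 0.419), and with them as a block -0.15 (unadjusted p = 0.0719, adjusted p = 0.739).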

How the results depend on the processing

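Over 24 receptor differences and 1005 alternative values, 0 passed the threshold (smallest limma adjusted p = 0.128) and 47 turned sign, in 11 of the differences; the cause was not tested. For continuous ethanol against water, Drd1 (1368479_at) was 0.026 with the 3′ minus 5′ signal as a covariate, 0.047 with the medium spiny neuron score, 0.0025 with the mean of the dim probe sets and 0.0047 with the 5 arrays that lay apart as a block, and -0.058 to 0.046 with single arrays left out. With the dim mean, Drd4 was 0.013 (1387520_at), 0.020 (1394385_s_at) and 0.074 (1394384_at). With the block of 5 arrays it was 0.030 on 1394385_s_at and 0.027 on 1394384_at, and without those arrays 0.016 on 1394385_s_at. For limited access against water, Drd1 (1368478_at) was -0.0038 with array weights, -0.00017 with the replicate block, -0.026 with the leptomeningeal score and -0.032 to 0.047 with single arrays left out. Drd4 (1387520_at) was -0.020 with weights, -0.010 with the 3′ minus 5′ signal, -0.039 without the 5 arrays and -0.028 to 0.038 with single arrays left out. Drd4 (1394385_s_at) was -0.00021 with the medium spiny neuron score and -0.032 to 0.050 with single arrays left out. Without the 5 arrays Drd3 was 0.0013 and Drd4 (1394384_at) -0.013. For continuous against limited access, Drd3 was 0.017 after a further quantile normalization, 0.029 with the dim mean, 0.013 with the block of 5 and -0.029 to 0.0059 with single arrays left out, and Drd4 (1394385_s_at) was 0.0021 with the dim mean and 0.0062 without the 5 arrays.

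Drd1 minus Drd2 with limited access against water was 0.16 on the mean of both Drd1 probe sets (exact permutation adjusted p = 0.0221), and 0.10 to 0.15 with single arrays left out, passing without limited access replicates 4 and 6 and without water replicate 8. Continuous against water was 0.11 without the 5 arrays (adjusted p = 0.0665) and 0.10 to 0.13 with single arrays left out. In the main fit for that comparison Drd1 itself changed by -0.04 on 1368478_at and -0.01 on 1368479_at, and Drd2 by -0.16. Drd1 minus Drd2 with continuous against limited access was -0.025 on the mean of both Drd1 probe sets, -0.030 without the 5 arrays, and -0.030 to 0.021 with single arrays left out. With the replicate number as a block 0 receptor probe sets passed, and Drd2 with continuous ethanol against water was -0.17 (limma adjusted p = 0.183); same-numbered arrays had correlations of -0.24 to 0.34 (12 of 28 over 0.1) and 2 of 29 arrays correlated best with their own number, so the numbers were not used to pair samples. Probe sets called with continuous ethanol against water numbered 12 to 94 over all alternatives (33 in the reported fit), with 12 under the dim mean or without the 5 arrays, 14 with those as a block, 56 with the medium spiny neuron score, and 66, 94, 18 and 59 without limited access replicate 6 and water replicates 4, 5 and 8. The fits with the dim mean and the alternatives without the filter were chosen after seeing the data. The number of arrays and the low signal of Drd3, Drd5 and the 2 dim Drd4 probe sets limit the precision.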

Other observations

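Some receptor probe sets moved with markers of cells that are not neurons, over 29 arrays with group means removed and with p-values adjusted over 104 relations. The Drd4 probe set 1394385_s_at, whose gene assignment is uncertain, had r = 0.55 with the microglial score and 0.51 with the astrocyte score (permutation adjusted p = 0.0189 and 0.0151), while rho was 0.38 and 0.34 (adjusted p = 0.254 and 0.328). The tested Drd4 probe set 1387520_at had r = -0.03 and -0.10 with these scores (permutation adjusted p = 0.934 and 0.893). The dimmer Drd1 probe set (1368479_at) had r = -0.56 with the astrocyte score (permutation adjusted p = 0.0357) and rho = -0.45 (adjusted p = 0.136), and r was -0.66 without the 2 arrays farthest from the median. The brighter Drd1 probe set (1368478_at) had r = -0.31 with that score (permutation adjusted p = 0.293). The residual SD of Drd1 (1368478_at) was 0.128, that of 1368479_at 0.170, that of Drd2 0.143 and that of Drd4 (1387520_at) 0.122, beside a median of 0.118 over all tested probe sets.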
